A study of Mus musculus with 2 samples.

Results

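The genes described here are 10 genes of the receiving side of WNT signalling: the R-spondin ligands Rspo1, Rspo2 and Rspo3, the R-spondin receptors Lgr4, Lgr5 and Lgr6, the WNT receptors Fzd1, Fzd2 and Fzd7, and the WNT co-receptor Lrp6. They were found by the gene name printed on the array, which gave 13 of 39429 gene probes. The other measured genes bring the total to 23419 genes. RNA came from ureters dissected from NMRI mouse embryos at stage E18.5. The RNA labelled cDKO came from embryos with 1 Cre allele of Tbx18 (cre/+) whose Tbx2 was fl/fl and whose Tbx3 was also fl/fl. Control embryos were +/+ at Tbx18, with fl/? at Tbx2 and fl/? at Tbx3. Cre was thus driven by the Tbx18 locus, which is active in the ureteric mesenchyme, and the controls carried floxed alleles without Cre. Both RNAs of a sex were hybridised together on 1 two-colour array, males on replicate 1 and females on replicate 2 with the dyes exchanged, so that each gene has n = 2 ratios. Sex, dye orientation and replicate number cannot be told apart, and the number of embryos behind each RNA is not given in the labels. The p-values therefore measure only the spread between these 2 arrays, mostly as limma shares it over all probes and less as each gene shows it. The number of arrays limits the precision.

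R-spondins are secreted proteins that bind LGR receptors together with the membrane ubiquitin ligases ZNRF3 and RNF43. Those ligases remove Frizzled receptors and LRP6 from the cell surface, so that R-spondin binding keeps more WNT receptors in place. WNT ligands bridge a Frizzled receptor and LRP5 or LRP6, and the signal reaches the nucleus through beta-catenin and TCF/LEF factors. In the ureter, WNT ligands of the epithelium act on the surrounding mesenchyme, which forms the smooth muscle coat.

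In each RNA, 72.1% to 81.6% of 43020 gene spots passed the scanner software's test against background, and the median signal was 12.1 to 17 times the local background. All 13 probes were well above background in all 4 RNAs, and 0 of their spots was saturated or marked as an outlier. The targeted transcripts Tbx2 and Tbx3 were higher in the RNA labelled cDKO, at log2 ratios of 0.74 and 0.66 over control, as was Tbx18 at 0.81 (limma adjusted p = 0.0273, 0.0305 and 0.00778). None of these 3 calls held under median centring, with processed signals or with a weaker variance prior, and the probes of the floxed genes do not check the deletion unless they lie in the deleted part. Ddx3y and Eif2s3y, which are Y-linked, had processed signals of 359.6 and 491.2 in the female RNA labelled cDKO, which are 12.6% and 9.52% of those in the male RNA labelled cDKO, and were not well above background in the female control RNA. On the female array the signals of Uty and Kdm5d, also Y-linked but dimmer, did not count as well above background. The pair of Uty probes gave 118.2 and 37.03 in the male RNA labelled cDKO, against 6.605 and 5.516 in the female one. Kdm5d gave 75.05 in the male and 2.904 in the female RNA labelled cDKO. By Ddx3y and Eif2s3y the female array thus goes in part against its label. The ratios of the genes described here are therefore given below for each array beside their mean. Many other genes, and the other settings, are given by the mean alone. The smooth muscle markers, which define the ureter wall, were present in all 4 RNAs, and 11 of 12 fell in the RNA labelled cDKO while none rose (median log2 ratio -2.64). The urothelium markers were likewise well above background for 15 of 15 genes in every RNA.

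Of the 10 genes, 2 rose in the RNA labelled cDKO and 0 fell (limma, adjusted p under 0.05 over all kept probes). They were Lgr5, an R-spondin receptor gene known as a WNT target, at 4.91 times control, and Fzd1, a Frizzled receptor, at 2.40 times control. The same 2 genes were at least 2-fold higher on both arrays. Over all genes 4.45% were called in either direction, 2.18% were called higher, 2.27% were called lower, and 0.41% were at least 2-fold higher on both arrays. The median log2 ratio of the 10 genes was 0.34, with 0.56 (male array) and 0.24 (female array), against 0.0045 over all genes. The ratio was above 1 on both arrays for 7 of the 10, against 31.7% of all genes, and below 1 on both arrays for none, against 28% of all genes. For the other 3 the arrays pointed in opposite directions, against 40.3% of all genes. With 1 residual degree of freedom the variance prior that limma shares over probes, here 13.9 degrees of freedom, is poorly estimated, and adjusted p-values can be too small. With that prior set at 4 degrees of freedom, a setting chosen after seeing the data, Lgr5 and Fzd1 were still called (limma adjusted p = 0.011 and 0.0428), while 70 genes in all were called higher and 142 lower, against 511 and 531. In whole ureters, fewer cells of a type and less RNA per cell cannot be told apart.

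**Figure D1:**
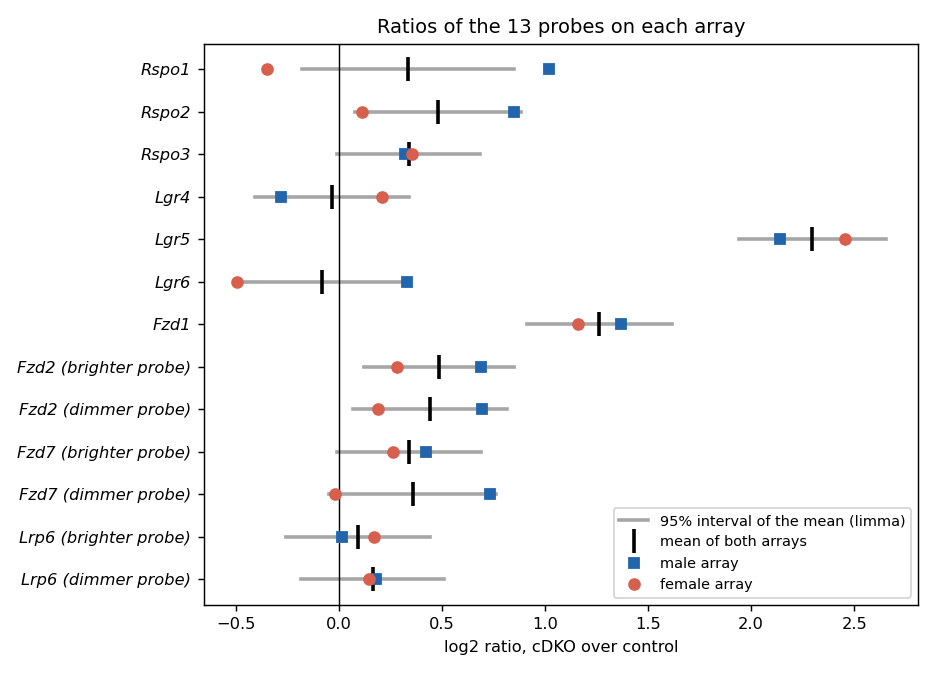
Log2 ratio of the RNA labelled cDKO over control for each of the 13 probes, with the male array as squares, the female array as circles, the mean as a black tick and its 95% interval (limma) as a grey bar. Lgr5 at 2.30 and Fzd1 at 1.26 lie apart from the other genes, whose means run between -0.08 and 0.49, and the arrays fall on opposite sides of 0 for Rspo1, Lgr4 and Lgr6.

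Among the ligands, Rspo1, known for its part in ovary development, had a normalized intensity of 2102 in the male and 1416 in the female RNA labelled cDKO, against 1037 in the male and 1803 in the female control RNA. The arrays disagreed in direction. Its log2 ratios were 1.02 (male array) and -0.35 (female array), with a mean of 0.34 ± 0.967 (SD, n = 2; 95% interval -0.18 to 0.85; limma adjusted p = 0.576). Its probe lies at chr4:124686270-124686329 on mm9, the UCSC name of the NCBI mouse build that the file headers give, and all probe positions are on it.

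Rspo2, which acts in limb and lung development, had intensities of 547.5 and 335.2 in the male and female RNA labelled cDKO, against 304 and 310 in the male and female control RNA. On each array the RNA labelled cDKO was above its control, on the female array only slightly. The male array gave a log2 ratio of 0.85 and the female array 0.11, and the mean of 0.48 ± 0.52 (SD, n = 2; 95% interval 0.08 to 0.88) missed the threshold after adjustment (limma adjusted p = 0.212). With the scanner software's processed signals, which were 124.8 and 70.99 for the RNA labelled cDKO and 42.47 and 63.9 for control, the mean was 0.85. Under median centring it was 0.45. The control signals were close to the background, where the lowest signals called well above it were at most 20.7 in any of the 4 RNAs. The interval above holds for this gene alone, without adjustment for the number of probes.

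Rspo3, needed for placental and vascular development, was the steadiest of the ligands. Its intensities were 5695 and 5647 in the RNA labelled cDKO, against 4559 and 4410 in control RNA, male before female. The RNA labelled cDKO was above the control of the same array by nearly the same amount on both. Log2 ratios of 0.32 (male array) and 0.36 (female array) gave a mean of 0.34 ± 0.0252 (SD, n = 2; 95% interval -0.01 to 0.69; limma adjusted p = 0.338).

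**Figure D2:**
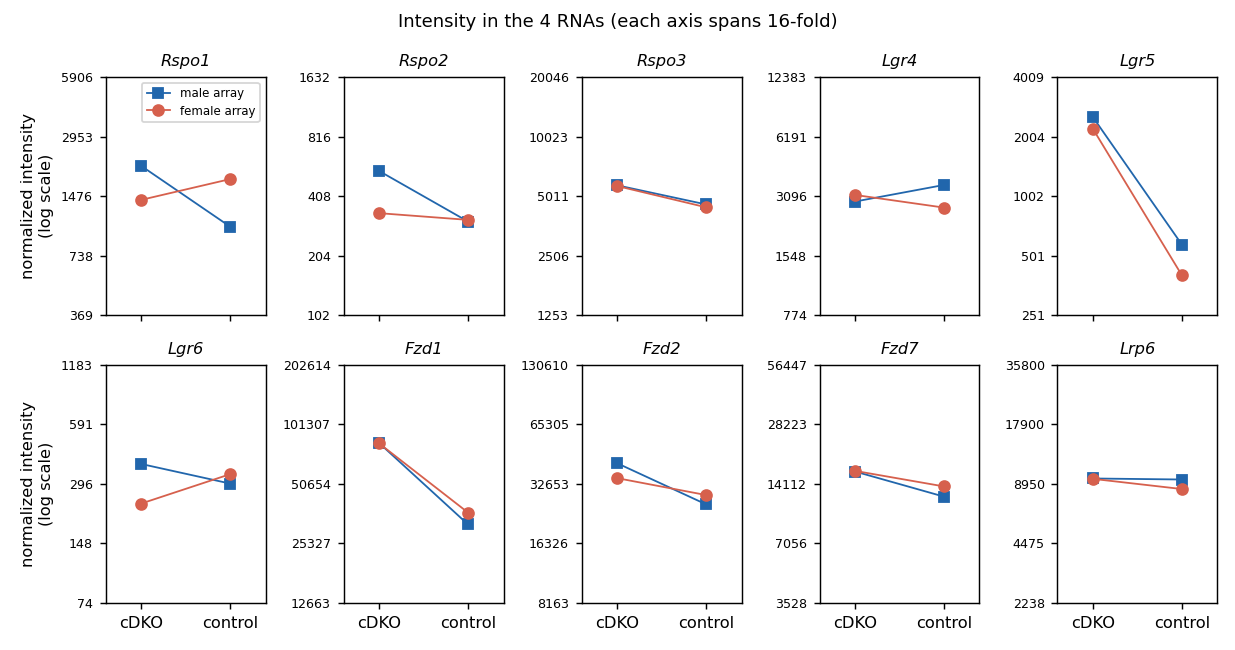
Normalized intensity of each gene's brighter probe in the RNA labelled cDKO and in control RNA, on log axes that each span 16-fold, with a line joining the 2 RNAs of an array. The lines fall steeply towards control for Lgr5 and Fzd1, slope in opposite directions on the arrays for Rspo1, Lgr4 and Lgr6, and fall towards control on both arrays for the other 5 genes.

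Among the LGR receptors 1 of 3 was called. Lgr5, which marks stem cells of the gut and cells of the forming nephron, had an intensity of 2513 in the male and 2192 in the female RNA labelled cDKO, against 571.2 in the male and 399.7 in the female control RNA. The RNA labelled cDKO stood far above its control on both arrays. The male array gave a log2 ratio of 2.14 and the female array 2.46, and the mean of 2.30 ± 0.225 (SD, n = 2; 95% interval 1.94 to 2.65; limma adjusted p = 3.23e-07) placed Lgr5 at rank 18 of 23419 genes from the highest. The scanner software's own errors of the ratio, 0.315 and 0.327 log2 units on the male and female array, were far below its ratios of 2.59 and 2.75. Its probe lies on the minus strand at chr10:114887403-114887462.

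Lgr4, the broadly expressed receptor of the family, had intensities of 2912 and 3144 in the RNA labelled cDKO, against 3531 and 2714 in control RNA, male before female. The genotypes overlapped. Log2 ratios were -0.28 (male array) and 0.21 (female array), with a mean of -0.03 ± 0.347 (SD, n = 2; 95% interval -0.41 to 0.34; limma adjusted p = 0.965). Under median centring in place of loess the mean was 0.13, so its sign depends on the scaling.

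Lgr6, known from stem cells of the hair follicle, was measured close to the background. Its processed signals were 65.11 and 38.84 in the male and female RNA labelled cDKO, against 41.12 and 67.48 in the male and female control RNA, where the lowest signals called well above background were at most 20.7 in any of the 4 RNAs. The arrays disagreed here too, at log2 ratios of 0.33 (male array) and -0.49 (female array). Their mean was -0.08 ± 0.581 (SD, n = 2; 95% interval -0.50 to 0.33; limma adjusted p = 0.919). The intervals of Lgr4 and Lgr6 both end below the lower bound of 1.94 for Lgr5, though the differences between these genes were not tested.

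Among the Frizzled receptors, Fzd1 had intensities of 81350 and 80960 in the male and female RNA labelled cDKO, against 31540 and 36220 in the male and female control RNA. On each array the RNA labelled cDKO lay well above its control. The male array gave a log2 ratio of 1.37 and the female array 1.16, and the mean was 1.26 ± 0.146 (SD, n = 2; 95% interval 0.91 to 1.61; limma adjusted p = 0.000184), at rank 100 of 23419 genes. Its probe lies on the minus strand at chr5:4754003-4754062. The calls of Lgr5 and Fzd1 held in 9 of 10 settings with a test and were lost in the deposited value table (adjusted p = 0.118 for Lgr5 and 0.228 for Fzd1), where the ratios were 2.67 and 1.27.

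For Fzd1 the 250 bases before the annotated start are shown, because of the 2 called genes it is the one with an entry in the promoter table from RefSeq (GRCm38.p6, chr5:4758217-4758466, minus strand).
Fzd1: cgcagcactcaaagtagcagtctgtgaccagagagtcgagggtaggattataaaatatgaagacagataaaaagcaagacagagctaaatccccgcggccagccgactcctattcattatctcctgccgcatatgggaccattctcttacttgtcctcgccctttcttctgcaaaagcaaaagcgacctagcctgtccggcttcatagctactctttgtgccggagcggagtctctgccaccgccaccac
It holds 51.2% G or C, against a median of 52% over 27025 promoters of that table, and 12 CG pairs against a median of 6. The TCF/LEF letters CTTTGAT and the T-box letters AGGTGTGA, searched on both strands, do not occur in it, and capitals would have marked them. The first is found in 3.23% and the second in 1.14% of those promoters. The table also held Fzd7, Lgr4, Lgr6 and Rspo1, whose windows had 0 matches to either.

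Fzd2, a close relative of Fzd1, was measured by a pair of probes. At the brighter one its intensities were 41470 and 34860 in the male and female RNA labelled cDKO, against 25710 and 28640 in the male and female control RNA. The RNA labelled cDKO was above its control on both arrays. Log2 ratios were 0.69 (male array) and 0.28 (female array), with a mean of 0.49 ± 0.287 (SD, n = 2; 95% interval 0.12 to 0.85; limma adjusted p = 0.151). The dimmer probe gave 0.70 and 0.19, a mean of 0.44. With an intensity trend in the variance model Fzd2 passed the threshold (adjusted p = 0.0374), the 1 gene of the 10 to gain a call in any setting.

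Fzd7, the third of these related receptors, had intensities of 16270 and 16390 in the RNA labelled cDKO, against 12150 and 13680 in control RNA, male before female, at its brighter probe. Each array had the RNA labelled cDKO above its control. Log2 ratios of 0.42 (male array) and 0.26 (female array) gave a mean of 0.34 ± 0.113 (SD, n = 2; 95% interval -0.01 to 0.69; limma adjusted p = 0.338). The dimmer probe had the same mean within 0.02 log2 units but split as 0.73 and -0.02. On the female array the scanner software's ratio for it was -0.004 with an error of 0.207, so its sign there is not settled.

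The brighter Fzd2 probe and the dimmer Fzd7 probe read related stretches, which bears on how separately they measure the receptors. They are given as printed on the array, with capitals for the bases that differ where the probes align.
Fzd2: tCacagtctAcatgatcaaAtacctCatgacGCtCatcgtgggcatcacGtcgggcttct
Fzd7: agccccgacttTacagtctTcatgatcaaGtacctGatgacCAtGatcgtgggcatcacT
Of 50 aligned bases 42 are identical and 8 differ, an identity of 84%. No other pair of probes of different genes among the 13 shared more than 29 bases without gaps. The Fzd2 probe lies at chr11:102467613-102467672 and the Fzd7 probe at chr1:59541367-59541426, both on the plus strand of mm9. How much of either signal comes from the related transcript was not tested.

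Lrp6, the co-receptor, differed least between the genotypes among the 7 genes whose arrays pointed the same way. Its brighter probe had intensities of 9517 and 9474 in the RNA labelled cDKO, against 9405 and 8417 in control RNA, male before female. The RNA labelled cDKO was above its control on both arrays, by little on the male array. Log2 ratios of 0.02 (male array) and 0.17 (female array) gave a mean of 0.09 ± 0.109 (SD, n = 2; 95% interval -0.26 to 0.44; limma adjusted p = 0.882). The dimmer probe gave 0.18 and 0.15, a mean of 0.16. The interval leaves out a change of 2-fold in either direction for both probes.

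**Figure D3:**
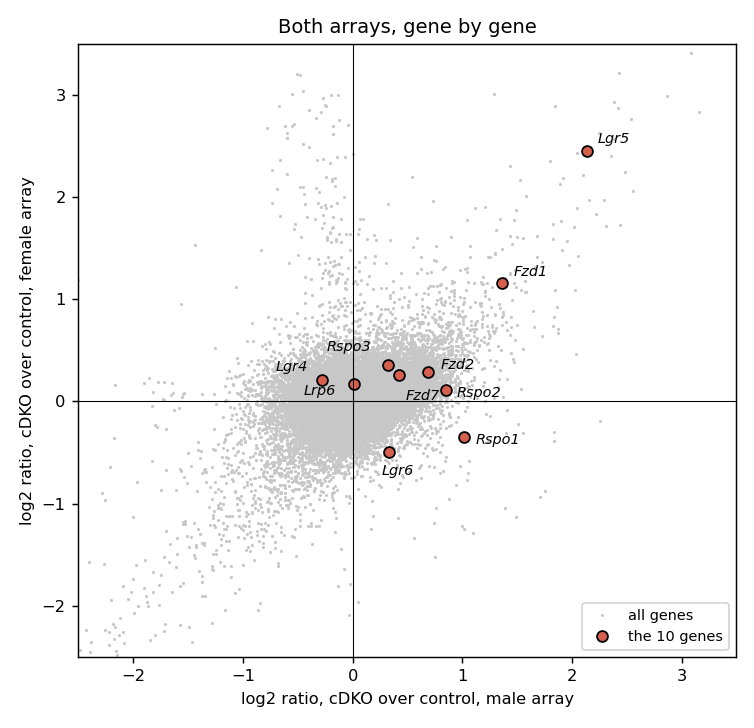
Log2 ratio of the RNA labelled cDKO over control on the male array (x axis) against the female array (y axis), with 1 grey point a gene and the 10 genes in red, and 54 genes outside the axes. Lgr5 and Fzd1 lie near the diagonal in the upper right, while Rspo1, at 1.02 and -0.35, lies at the lower right.

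Neither array was higher throughout. Of the 10 genes, 6 had the higher ratio on the male array (Rspo1, Rspo2, Lgr6, Fzd1, Fzd2 and Fzd7) and 4 on the female array (Rspo3, Lgr4, Lgr5 and Lrp6). In the lists of other WNT pathway genes the medians were 0.49 (male array) and 0.19 (female array), and over all genes 0.0038 and 0.0181. The difference between the arrays was not tested.

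The other genes of receptor complexes and receptor turnover had a median log2 ratio of 0.29. Of 19 measured genes 2 rose and 0 fell. They were Ptk7, a WNT co-receptor of planar polarity, at 0.78 ± 0.414 (SD, n = 2; 1.07 male array, 0.49 female array; limma adjusted p = 0.0193), and Rnf43, the ubiquitin ligase that R-spondins inhibit, at 0.68 ± 0.266 (SD, n = 2; 0.87 male array, 0.49 female array; limma adjusted p = 0.0317). Neither call was kept under median centring, with the processed signals, in the deposited value table or with the prior at 4 degrees of freedom. That of Rnf43 was also lost with offset 0 and without the filter on dim probes (limma adjusted p = 0.0599 and 0.0557). Znrf3, the partner ligase, was at 0.52 (limma adjusted p = 0.11). Lrp5, the relative of Lrp6, was at 0.29 (0.55 male array, 0.04 female array). Across the whole Frizzled family 1 of 10 measured genes, Fzd1, was called. A mean above 0 was found for 9 of them, against 11921 of 23419 over all genes. Fzd6 was at -0.14 (-0.30 male array, 0.03 female array). For Fzd3 and Fzd10 the arrays also pointed in opposite directions.

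Upstream and downstream of these receptors, 17 of 65 measured ligands, antagonists, transducers and targets rose and 2 fell. Among the WNT ligands 4 of 17 rose, with Wnt11, of the planar polarity branch, at 1.32 and the epithelial ligand Wnt7b at 0.80. Among the antagonists 8 of 16 rose, led by Shisa2, which holds Frizzled and FGF receptors in the cell, at 4.08, and by Dkk1, which binds LRP6, at 2.66. Among the target genes 5 of 16 rose and 2 fell, the WNT inhibitor Nkd2 at -0.62 and the receptor Tnfrsf19 at -0.67, with the nuclear factors Lef1 and Tcf7 at 1.30 and 1.19. Of the transducers 0 of 16 was called by limma, with 4 higher at an unadjusted p under 0.05, and the values ran between 0.01 and 0.51. Both lower calls were lost with the processed signals, with offset 0, under median centring and without the filter on dim probes, and that of Tnfrsf19 also with the mean of its probes. The list of targets includes Tbx3, which is a floxed gene here. With the receptor companions 19 of 84 pathway genes rose, against 8 with the processed signals, 8 under median centring and 6 with the prior at 4 degrees of freedom, and Wnt11 and Wnt7b lost their calls with the processed signals (adjusted p = 0.0576 and 0.177).

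**Figure D4:**
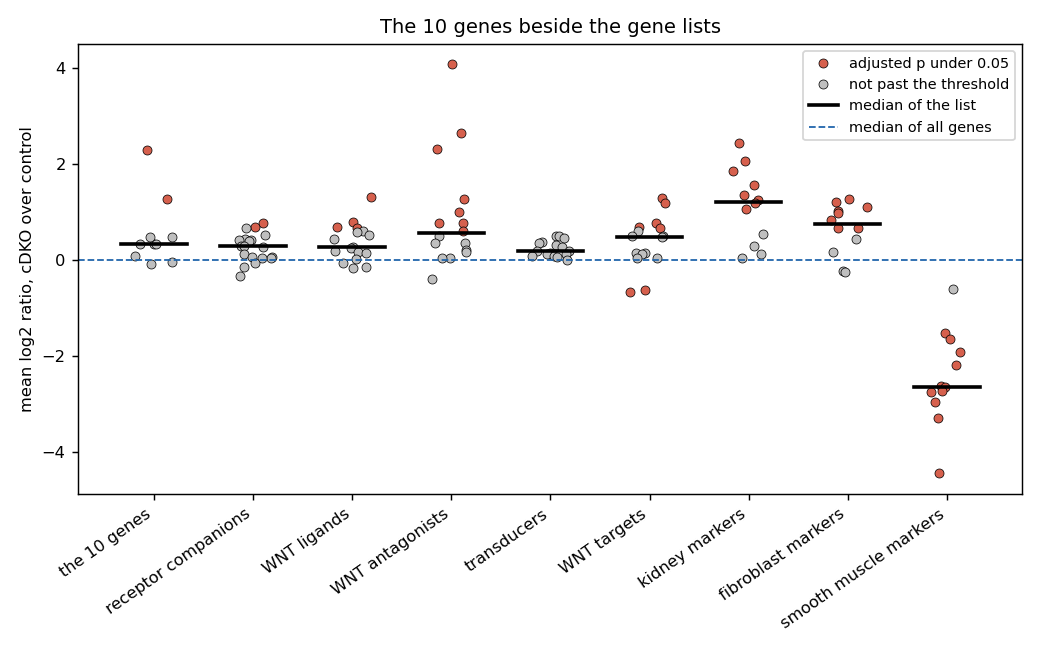
Mean log2 ratio of the RNA labelled cDKO over control for each gene (points, red where the adjusted p was under 0.05), with each list's median as a black bar and that of all genes as a dashed line. The 10 genes have a median of 0.34, the kidney markers 1.22, the fibroblast markers 0.76 and the smooth muscle markers -2.64.

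Markers of other cell types moved in the same RNA. The kidney list, which matters most for Lgr5 because forming nephrons express it, had 8 of 12 measured markers higher and 0 lower, with a median of 1.22 (1.29 male array, 0.86 female array). Cdh16, a cadherin of kidney tubules, was at 3.52 (male array) and 1.37 (female array). Lhx1, a factor of the early nephron, was at 2.16 and 1.97, and Six2, a factor of nephron progenitors, at 2.02 and 1.71. The ratio was above 1 on both arrays for 9 of the 12 markers and below 1 on both for 0. For Cited1, Wt1 and Pax2, not called by limma, the arrays disagreed. Their male and female arrays gave 0.73 and -0.48, 0.85 and -0.26, and 0.25 and -0.18. With the processed signals 3 kidney markers were called, and Cdh16, Pax8, Slc34a1, Lrp2 and Hnf4a were not (limma adjusted p between 0.0579 and 0.302). With the prior at 4 degrees of freedom 2 were called. The Lhx1 probe used was not well above background in the female control RNA, and the log2 ratio of Lhx1 was 0.70 when both genotypes had to be above background and 1.38 with the mean of its probes. The summed processed signal of the 12 markers was 16370 and 8228 in the male and female RNA labelled cDKO, against 6477 and 7198 in the male and female control RNA. Nphs1, Umod, Slc12a1 and Slc12a3 were not well above background in either genotype on both arrays. On the female array Lgr5 stood at 2.46, above all 12 kidney markers, while on the male array Cdh16 and Lhx1 stood above it. As means of both arrays Cdh16 was at 2.45, Lgr5 at 2.30 and Lhx1 at 2.06. With the processed signals these means were 2.84, 2.67 and 3.53, so the order depends on the processing. The fibroblast list had 8 of 12 genes higher and 0 lower, with a median of 0.76, and its summed signal was 647706 and 552170 in the RNA labelled cDKO, against 335721 and 292858 in control RNA. The part of these cell types in the ratios of Lgr5, Fzd1 and the other genes was not tested.

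**Figure D5:**
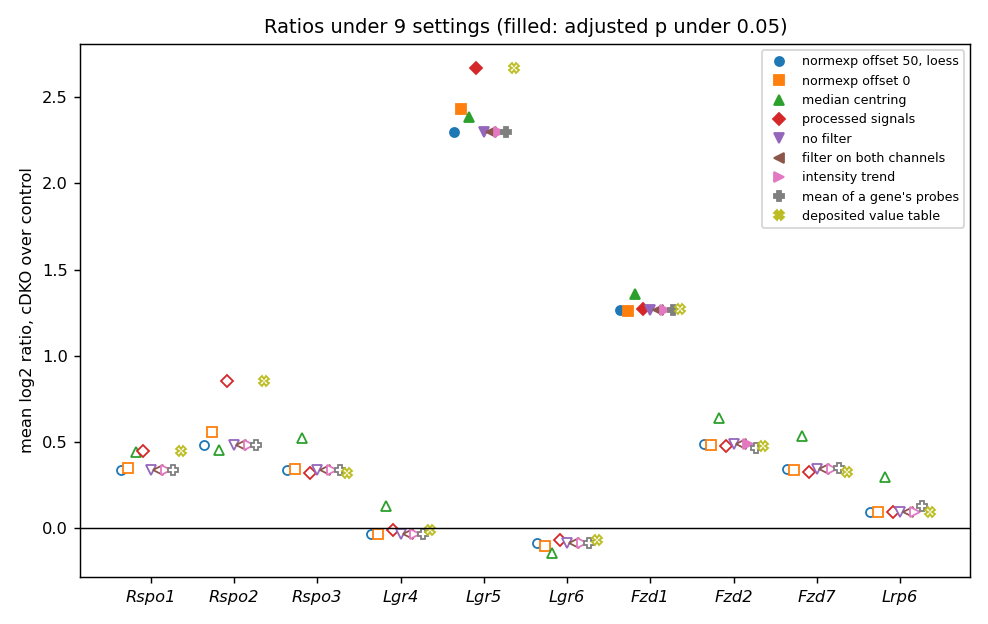
Mean log2 ratio of the RNA labelled cDKO over control for the 10 genes under 9 of the 10 settings, with filled symbols where the adjusted p was under 0.05. Lgr5 stays between 2.30 and 2.67 and Fzd1 between 1.26 and 1.36, the symbols of the deposited value table are open throughout, and Lgr4 crosses 0 under median centring.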

How the data were processed

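2-colour arrays of ureter RNA were read from the authors' deposited scanner files. Per the file headers, Agilent Feature Extraction 10.7.3.1 gave mean spot and median background intensity per channel, a background-subtracted and dye-normalized processed signal, a log10 ratio of red over green with its error, and 0 or 1 flags. The deposited value table is a score: comparison with the scanner values shows a signed fold change, cDKO over control, taken on processed signals raised to a floor of 26.9 (male) and 20.4 (female), within 0.001 log2 for 100% of 44397 values. The column medians were 1.

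Mean intensities were corrected by normexp (offset 50) and then loess array by array in limma 3.58.1 under R 4.3.3, giving control and outlier spots weight 0, and turned to cDKO over control by the labelled dyes. Normalized intensities are those values on a linear scale and include the offset. They were not scaled between the arrays and are compared only between the 2 RNAs of an array at the same probe. Probes well above background in 1 genotype on both arrays were kept (29274). Symbols came from RefSeq accessions for 26412 probes, otherwise from the file. A gene was its brightest kept probe. limma (lmFit, eBayes) tested the mean ratio against 0, two-sided, with Benjamini-Hochberg over all kept probes at 0.05. All ± values are SDs of 2 arrays, except those named as the scanner software's error. On simulated data with known changes the fit recovered them, and false calls stayed near the threshold when the variance prior was known but exceeded it when the prior was estimated from 2 arrays. Slide and scan were shared, so no block was set.

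The members and lists were chosen with earlier results of these data known. Named genes are all members, the targeted genes and Tbx18, called genes of the receptor list, the 2 most changed called genes of each other pathway list and 3 of the kidney list, and others are named after their values were seen. Marker lists cover kidney, endothelium, smooth muscle, fibroblast, urothelium, macrophage, erythroid and neural cells. Alternatives were offset 0, median centring, processed signals, other filters, an intensity trend, the mean of probes, the deposited table, each array alone and, added after seeing the data, a prior of 4 degrees of freedom.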

Additional observations from a re-analysis of the deposited data

Results flagged for a closer look

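The direction of 3 of the 10 genes was opposite on the male and the female array, against 40.3% of all genes. Each direction rests on 1 array and the difference was not tested. Rspo1 had a log2 ratio of cDKO over control of 1.02 (male array) and -0.35 (female array). The scanner software's own log2 ratios of processed signals for it were 1.30 ± 0.237 and -0.41 ± 0.208, where ± is that software's error. Lgr6 had 0.33 (male array) and -0.49 (female array), and the scanner software's ratios were 0.66 ± 0.244 and -0.80 ± 0.256. Lgr4 had -0.28 (male array) and 0.21 (female array), and the scanner software's ratios were -0.26 ± 0.206 and 0.25 ± 0.205.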

How the results depend on the processing

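Lgr5 and Fzd1 were called higher in 9 of 10 settings with a test, Fzd1 only narrowly with the processed signals (limma adjusted p = 0.0464). With the authors' deposited values 0 of the 10 genes was called by limma, with 2 at an unadjusted p under 0.05. There 0 genes in all were called higher and 0 lower, with 2424 at an unadjusted p under 0.05, and 0 pathway genes higher and 0 lower. The table sets 11933 and 11692 values to exactly 1, and the cause of the lost calls was not tested. None of the 10 genes was called lower in any setting, also at an unadjusted p under 0.05. Lgr4 turned to 0.13 under median centring, and the cause was not tested. Under median centring Rspo3 was at 0.52, Fzd7 at 0.53 and Lrp6 at 0.30. Among all genes 511 were called higher and 531 lower, against 134 and 210 with the processed signals and 163 and 157 under median centring, and 936 were called higher with an intensity trend. With the variance prior set at 4 degrees of freedom, chosen after seeing the data, 70 were called higher and 142 lower, and 6 pathway genes higher and 0 lower, with 2 lower at an unadjusted p under 0.05. The higher share of the calls was 49%, against 39% with the processed signals 58.5% with the trend and 33% with that prior. Pathway genes called higher were 8 under median centring and 8 from processed signals, against 19. Those called lower were 2, against 1 with the mean of a gene's probes and 0 with the processed signals, offset 0, median centring and no filter, where 2, 2, 0 and 3 were lower at an unadjusted p under 0.05. On single arrays 278 to 299 genes were at least 2-fold higher and 274 to 322 lower, against 96 and 170 on both. Of the pathway genes 7 to 12 were so, against 7, and of the 10 genes 2 to 3, Rspo1 passing on the male array alone. No paired analysis was possible because each array already pairs the genotypes and gives 1 ratio.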

Other observations

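Other cell types of the ureter differed less than the muscle coat. Of 15 urothelium markers 0 were called by limma, with 5 higher at an unadjusted p under 0.05 (median log2 ratio of cDKO over control 0.20). The endothelium list had 2 of 12 genes higher, Plvap, a protein of fenestrated vessels, at 0.97 and the adhesion protein Cdh5 at 0.68. Of 12 macrophage and leukocyte markers 0 were called by limma and 0 had an unadjusted p under 0.05, with a median of -0.16 (-0.04 male array, -0.32 female array). Among 7 erythroid genes 1 rose, the anion exchanger Slc4a1 at 0.62, and among 9 neural genes 1 rose, Ret, the receptor of GDNF, at 0.86, which the ureteric epithelium also expresses during development.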
